A study of Mus musculus with 3 samples.

Results

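Tumour necrosis factor (Tnf) and relatives from its superfamily were followed across 3 conditions in mouse bone marrow-derived dendritic cells, antigen-presenting cells grown from bone marrow. The genes were 6 ligands, Tnf, Ltb, Tnfsf4, Tnfsf9, Tnfsf10 and Tnfsf13b, and the 2 Tnf receptors, Tnfrsf1a and Tnfrsf1b. They were taken by name, as every probe set that the platform annotation gives to 1 of these genes alone, which made 13 of 45037 probe sets and 8 of 18193 genes. Each condition had 1 array, the Affymetrix Mouse 430 2.0. The conditions were 10 ng/ml lipopolysaccharide (LPS, a bacterial cell wall component sensed by Tlr4) plus 100 µM 8-Br-cAMP for 3 h, the same LPS alone for 3 h, and no stimulus. 8-Br-cAMP enters cells and acts in place of the second messenger cyclic AMP. All cells had been grown for 10 days with 10 ng/ml GM-CSF, a myeloid growth factor. The labels give no strain, sex or age of the mice. There was no culture with 8-Br-cAMP alone, and no time is recorded for the unstimulated cells.

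Ligands of this superfamily are mostly trimers anchored in the cell membrane, and several are cut off to become soluble. Many of their receptors recruit Traf adaptors, which feed NF-kB and MAP kinases, and some carry a death domain that can start cell death. In dendritic cells Tnf is an early product of Toll-like receptor signalling, and agents that raise cyclic AMP are known to restrain it. Tnfsf4 and Tnfsf9 costimulate T cells, and Tnfsf13b keeps B cells alive.

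Promoter sequence is shown for Tnf and Ltb, the ligands that were lower with 8-Br-cAMP. RefSeq's table gave windows for 6 of the 8 genes, and none for Tnfsf4 and Tnfsf9. Each sequence is the 250 bases before the annotated transcript start, 5′ to 3′ on the gene's strand (build GRCm38.p6), and capitals mark an NF-kB motif, GGGNNNNNCC on either strand. The Tnf window is chr17:35202008-35202257 on the minus strand and the Ltb window is chr17:35194257-35194506 on the plus strand.
Tnf: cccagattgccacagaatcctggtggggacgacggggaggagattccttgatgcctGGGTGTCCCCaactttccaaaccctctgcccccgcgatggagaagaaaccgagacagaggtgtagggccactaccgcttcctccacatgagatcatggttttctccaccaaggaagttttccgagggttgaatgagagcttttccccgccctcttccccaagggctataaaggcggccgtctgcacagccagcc
Ltb: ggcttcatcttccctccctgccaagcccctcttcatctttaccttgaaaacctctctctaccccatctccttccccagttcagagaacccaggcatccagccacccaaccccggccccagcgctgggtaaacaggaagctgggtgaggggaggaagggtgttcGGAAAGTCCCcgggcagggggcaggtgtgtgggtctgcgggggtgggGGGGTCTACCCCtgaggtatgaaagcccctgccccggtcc

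The NF-kB motif began 194 bases before the start in Tnf. In Ltb it began at 87 bases and, as 3 overlapping matches, at 40, 39 and 38 bases before the start. It is a loose pattern, present in 45.8% of the 32851 promoter windows of this length. Tnfrsf1a and Tnfrsf1b also held it, and Tnfsf10 and Tnfsf13b did not. The cAMP response element TGACGTCA, held by 1.55% of all windows, was in none of the 7 windows of these 6 genes, and its half-site TGACG (17.8%) was only in that of Tnfsf10. The AP-1 motif TGANTCA (6.75%) was in 1 of the 2 overlapping Tnfsf13b windows. Both strands were searched, the half-site is part of the full element, and a match in these letters is not a measured binding site. Only the letters given were searched, so variants of an element were missed. A window without a match may still hold such a variant.

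Signals were scaled so that the arrays had equal trimmed means, because the LPS+8-Br-cAMP array was deposited dimmer, with a median of 19.8, against 33.4 with LPS and 42.6 unstimulated. Signals under a floor of 32.5, the highest scaled array median, were set to it, so a difference against a floored value is a lower bound. A gene is represented by its brightest probe set, and "higher" or "lower" in counts means at least 2-fold. By that probe set 8 of 8 genes were above the floor on at least 1 array of each comparison, and 12 of the 13 probe sets were above it somewhere. Of all 18193 genes, 12572 passed this rule in LPS+8-Br-cAMP against LPS and 12283 in LPS against unstimulated. In LPS+8-Br-cAMP against unstimulated 12793 did. Of all 45037 probe sets, 22419 were above the floor with LPS+8-Br-cAMP, 21932 with LPS and 22518 unstimulated. With 1 array a condition there is no replicate check and no p-value. As a gauge, the brightest 2 probe sets of the same gene scattered with an SD per probe set of 0.53 log2 units when LPS+8-Br-cAMP was set against LPS, 0.49 when LPS was set against unstimulated and 0.62 when LPS+8-Br-cAMP was. This error of 1 probe set leaves out the spread between cultures.

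The cells carried the label's markers: 13 of 13 dendritic cell genes, such as Itgax and Cd74, were above the floor on each array, as were 6 of 6 macrophage genes. Dendritic cell markers summed to 50967 with LPS+8-Br-cAMP, 41751 with LPS and 34839 unstimulated. With LPS+8-Br-cAMP 9 of them read higher than with LPS and 4 lower. Macrophage markers summed to 15368, 16880 and 16022 in the same order, with 3 higher and 3 lower. Flt3 was near the floor with LPS, at 36.8. The cultures also differed in other ways. Granulocyte markers (11 of 11 above the floor on each array) summed to a scaled signal of 15759 with LPS+8-Br-cAMP, 36274 with LPS and 34934 unstimulated. B cell and plasma cell markers summed to 1169 (5 of 8 above the floor), 3809 (7 of 8) and 5405 (7 of 8) in the same order, and eosinophil markers to 498, 1408 and 1330 (3 of 4 on each). T cell markers were nearly all under the floor (0, 1 and 2 of 6 above it), NK cell markers had 2, 1 and 2 of 4 above it, and mast cell and basophil markers 3, 4 and 4 of 5. The female transcript Xist read 1716 with LPS+8-Br-cAMP, 8.08 with LPS and 32.3 unstimulated, and the Y-linked Eif2s3y read 1.24, 272 and 352. By these transcripts the LPS+8-Br-cAMP culture may come from other animals, of another sex, than the other 2 cultures, and such a difference cannot be told apart from one made by 8-Br-cAMP. The part these differences play in the results below was not tested, and in whole cultures fewer cells of a type and less RNA per cell cannot be told apart.

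**Figure D1:**
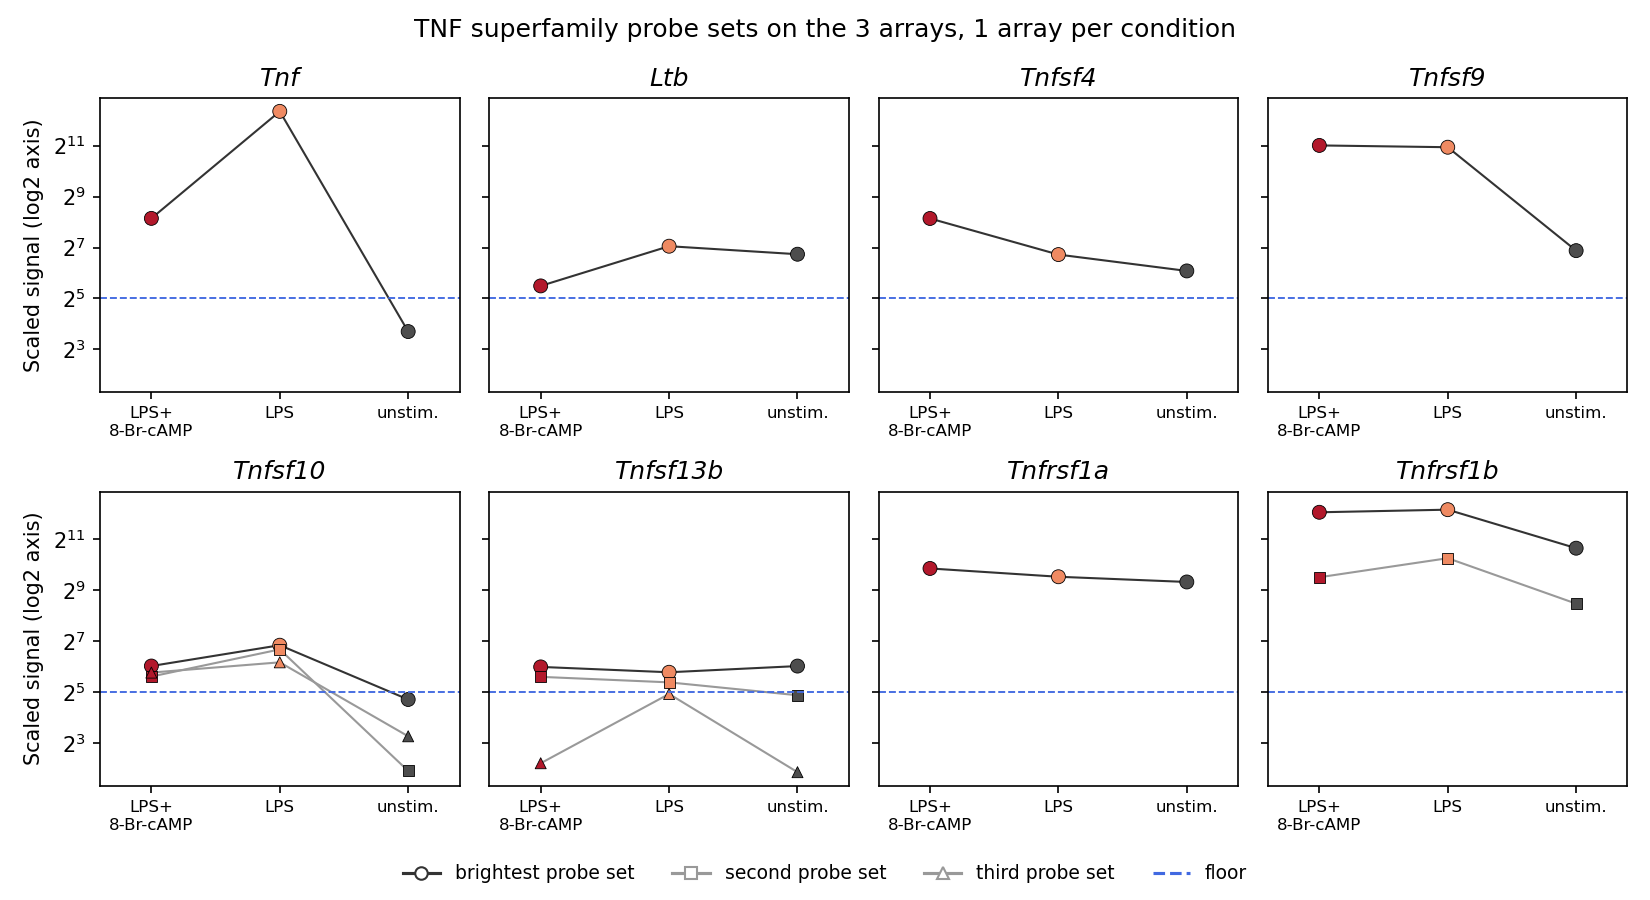
Scaled signal (log2 axis) of every probe set of the 8 genes on the LPS+8-Br-cAMP, LPS and unstimulated arrays, 1 array each, with the floor of 32.5 as a dashed line. Tnf stands at 283, 5206 and 13.0, while Tnfsf9 stands at nearly the same height on both LPS arrays, and levels should be read across arrays within a probe set, not between genes.

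Tnf, the founding cytokine of the superfamily, had a scaled signal of 283 with LPS+8-Br-cAMP, 5206 with LPS and 13.0, under the floor, in unstimulated cells. The LPS array was far the highest, and the LPS+8-Br-cAMP array lay between the others. With 8-Br-cAMP the Tnf signal was 18.4-fold lower than with LPS alone, a log2 difference of -4.20, about which the error of 1 probe set is 0.53. Among 9695 genes above the floor on both of these arrays, it ranked as number 2 from the lowest. It was still at least 8.70-fold higher than unstimulated (log2 at least 3.12), against at least 7.32 log2 units with LPS alone. Tnf has a single probe set, so no second measurement on the arrays checks it.

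Ltb encodes lymphotoxin beta, which anchors lymphotoxin alpha to the membrane and signals through Ltbr. Its signal was 45.1 with LPS+8-Br-cAMP, 133 with LPS and 107 unstimulated. The LPS and unstimulated values differed by 0.31 log2 units, within the error of 1 probe set, and the 8-Br-cAMP value was below both. Against LPS the log2 difference was -1.56 (2.95-fold lower), and against unstimulated cells it was -1.24. Ltb is also made by lymphocytes. Of the 8 B cell and plasma cell markers, 5 read lower with LPS+8-Br-cAMP than with LPS and 3 read higher. The largest gaps were in antibody transcripts: Ighm read 52.5 with LPS+8-Br-cAMP, 1495 with LPS and 3086 unstimulated, and Jchain 23.2, 529 and 716. Igha read 57.0, 881 and 903, Cd79a 3.07, 37.7 and 71.6, and Ms4a1 25.3, 47.5 and 82.5. Jchain, Cd79a and Ms4a1 were under the floor only with LPS+8-Br-cAMP. Among the markers that read higher, Blnk, a B cell adaptor, read 906, 766 and 425.5. Pax5, the B cell master regulator, read 51.9, 6.49 and 21.9, under the floor with LPS and unstimulated, so its difference is a bound. Ighm also read lower with LPS than unstimulated, and Igha read nearly the same on both. The part of lymphocytes in the Ltb result was not tested. The Ltb signal with 8-Br-cAMP was near the floor, and with the floor raised to the 75th percentile the difference shrank to -0.28.

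Tnfsf4, or OX40 ligand, was the only one of the 8 genes at least 2-fold higher with 8-Br-cAMP than with LPS alone. It read 282 with LPS+8-Br-cAMP, 106 with LPS and 67.8 unstimulated. The log2 difference was 1.42 against LPS (2.67-fold) and 2.06 against unstimulated cells (4.17-fold). LPS alone differed from unstimulated by 0.64, under 2-fold. With the signals left as deposited, the difference against LPS was 0.61, also under 2-fold. It too rests on a single probe set.

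Tnfsf9, or 4-1BB ligand, was high on both LPS arrays, at 2060.5 with LPS+8-Br-cAMP and 1962 with LPS, against 118 unstimulated. LPS alone was 16.7-fold above unstimulated (log2 4.06), and LPS+8-Br-cAMP 17.5-fold (log2 4.13). The 2 LPS arrays differed by 0.07 log2 units, well within the error of 1 probe set, where Tnf differed by -4.20 between them.

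Tnfsf10 encodes TRAIL, a ligand of death receptors. Its brightest probe set read 65.3 with LPS+8-Br-cAMP, 115 with LPS and 26.3, under the floor, unstimulated. The second read 49.0, 103 and 3.76, and the third 54.6, 72.2 and 9.66. In each probe set the LPS array was the highest and the unstimulated array the lowest, under the floor. LPS alone was higher than unstimulated by at least 1.82, 1.66 and 1.15 log2 units in these probe sets, but the first value was 0.08 with the floor at the 75th percentile. LPS+8-Br-cAMP differed from LPS by -0.82, -1.07 and -0.40, so 1 of 3 was past 2-fold. Against unstimulated cells LPS+8-Br-cAMP was at least 2.01-fold, 1.51-fold and 1.68-fold higher, so the brightest probe set only just passed 2-fold.

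Tnfsf13b, or BAFF, showed little difference. Its brightest probe set read 63.8 with LPS+8-Br-cAMP, 55.1 with LPS and 65.2 unstimulated, and the log2 differences were 0.21 against LPS and -0.03 against unstimulated for LPS+8-Br-cAMP, and -0.24 for LPS alone. The second probe set read 48.6, 41.9 and 29.5 (under the floor), and differed by 0.22 between the LPS arrays. The third was under the floor on every array, at 4.64, 30.6 and 3.64.

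Neither Tnf receptor was past 2-fold between the LPS arrays. Tnfrsf1a, the death domain receptor that most cells carry, read 929 with LPS+8-Br-cAMP, 741 with LPS and 643 unstimulated. Its log2 differences were 0.33 between the LPS arrays and, against unstimulated, 0.53 with LPS+8-Br-cAMP and 0.20 with LPS, each within the error of 1 probe set. Tnfrsf1b, the receptor without a death domain that is found mainly on leukocytes, read 4283 with LPS+8-Br-cAMP, 4598 with LPS and 1612 unstimulated. It was higher than unstimulated by 1.41 with LPS+8-Br-cAMP and by 1.51 with LPS, and the LPS arrays differed by -0.10. The second Tnfrsf1b probe set read 731, 1228 and 356, with differences of 1.04, 1.78 and, between the LPS arrays, -0.75. Both probe sets had the unstimulated array lowest, and they disagreed on how near the LPS arrays were to each other.

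**Figure D2:**
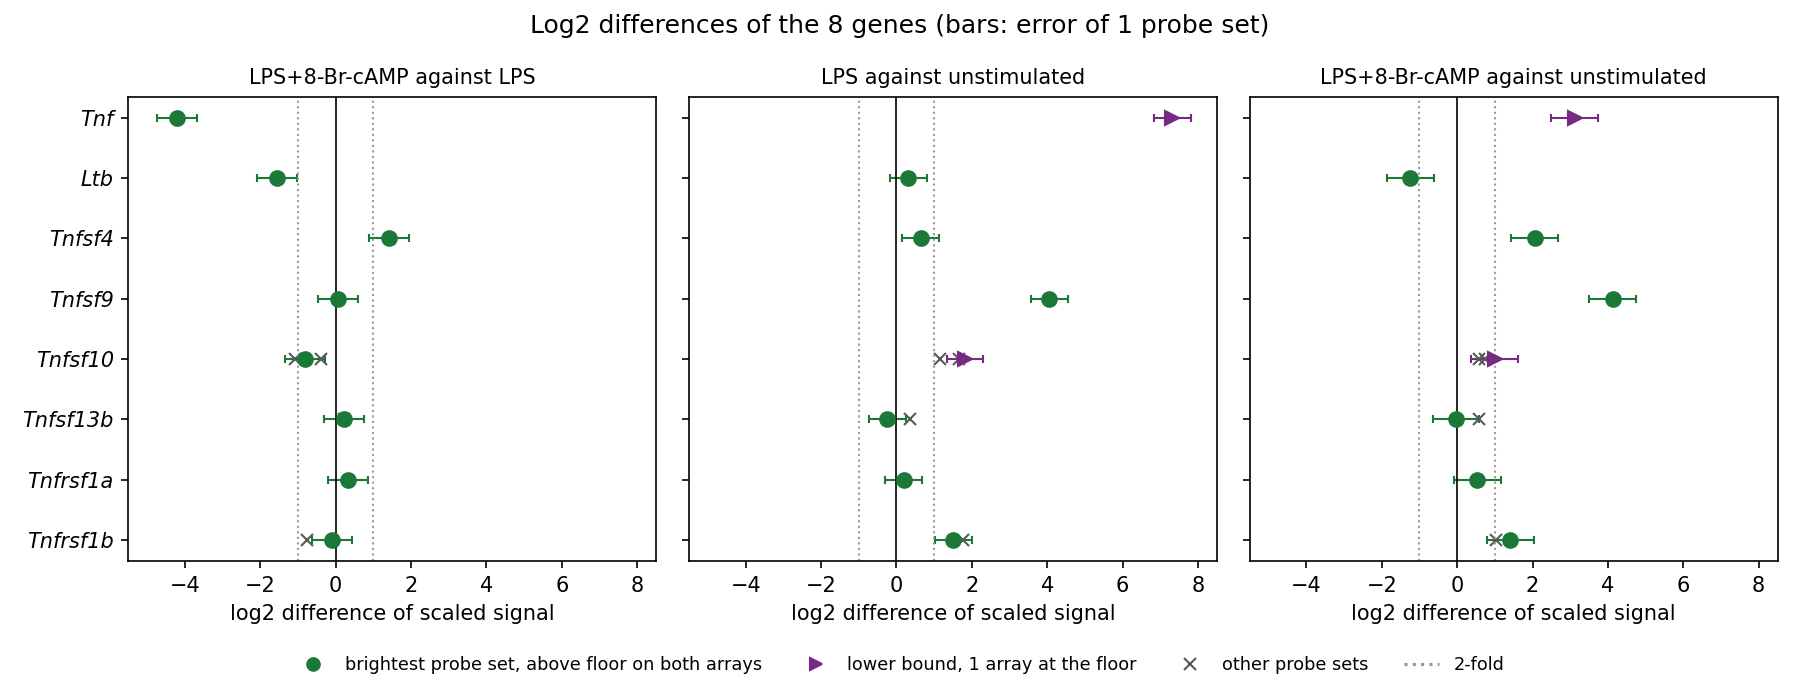
Log2 differences of the 8 genes in the 3 comparisons, with circles for differences measured on both arrays, triangles for lower bounds, crosses for other probe sets and bars for the error of 1 probe set. In LPS+8-Br-cAMP against LPS, Tnf (-4.20) and Ltb (-1.56) lie left of the 2-fold line and Tnfsf4 (1.42) right of it, and the other 5 lie between the lines.

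Counted over the genes, LPS+8-Br-cAMP against LPS had 2 of 8 lower (Tnf and Ltb) and 1 of 8 higher (Tnfsf4), with a median of -0.02. Of all 12572 genes measured, 5.81% were lower and 6.49% higher, 12.3% in either direction, with a median of 0.05. LPS against unstimulated had 4 of 8 higher (Tnf, Tnfsf9, Tnfsf10 and Tnfrsf1b) and 0 lower, with a median of 1.08. Of all 12283 genes measured there, 6.64% were higher and 13.0% lower (19.6% in either direction), with a median of -0.21. LPS+8-Br-cAMP against unstimulated had 5 of 8 higher, the same 4 and Tnfsf4, and 1 of 8 lower, Ltb, with a median of 1.21. Of all 12793 genes measured there, 9.36% were higher and 15.8% lower (25.1% in either direction), with a median of -0.12. The comparisons share arrays, so they are not independent of each other. The 8 genes were chosen with earlier results of these data known, so the counts describe them and test nothing. For the 4 genes higher with LPS, the LPS+8-Br-cAMP against LPS differences were -4.20 for Tnf, -0.82 for Tnfsf10, -0.10 for Tnfrsf1b and 0.07 for Tnfsf9.

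Genes with the most similar pattern were sought by the Euclidean distance between log2 signals over the 3 arrays, each gene centred on its own mean, among 4458 genes with a 2-fold difference in some comparison. The nearest to Tnf was the chemokine Ccl3, at a distance of 1.34 log2 units. Tnf, and Cxcl9 below, were under the floor unstimulated, so their patterns are bounds and these distances and their order hold only at this floor. Ccl3 read 1872 with LPS+8-Br-cAMP, 9432 with LPS and 93.6 unstimulated. Ifit3 (1.64), Cxcl9 (2.14), Ccl4 (2.19) and Oasl2 (2.26) followed, interferon-stimulated genes and chemokines that differed from LPS by -1.88, -1.65, -1.34 and -1.17 with 8-Br-cAMP.

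Other genes had close matches. For Tnfsf9 these were Nfkbiz (0.04), a nuclear cofactor of NF-kB, Irf7 (0.09), a transcription factor of the interferon response, and Slfn1 (0.13). For Tnfsf4 they were Gpr171 (0.02), Gm9895 (0.05) and the kinase Map4k4 (0.07), and Gpr171 read 1165 with LPS+8-Br-cAMP, 434 with LPS and 273 unstimulated. Tnfrsf1b lay nearest to Tcf4 (0.02), Reps1 (0.04) and Pik3r5 (0.04), and Tnfsf10, a bound, to Armcx3 (0.03), Phldb1 (0.04) and Kpna3 (0.07). The 3 nearest to Ltb, St8sia3 (0.02), Lgi3 (0.03) and Runx1t1 (0.04), were all under the floor with LPS+8-Br-cAMP, so their order there is unknown. With 3 arrays many genes can lie close by.

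Counts in the gene lists from here on stand beside the shares over all genes. These were 6.49% higher and 5.81% lower in LPS+8-Br-cAMP against LPS, and 6.64% higher and 13.0% lower in LPS against unstimulated. A count of 1 in a short list is not read as a result about that list. The lists, too, were chosen with earlier results of these data known. Further ligands of the superfamily were read from a list of 12, of which 8 had a probe set of their own and 5 were measured in each comparison. With LPS+8-Br-cAMP against LPS 1 was higher and 1 lower (median 0.26). Cd70, the ligand of Cd27, read 660 with LPS+8-Br-cAMP, 267 with LPS and 7.08, under the floor, unstimulated, so it was higher by 1.31 against LPS, and LPS was higher than unstimulated by at least 3.04. As deposited, its difference against LPS was 0.50, under 2-fold. Lta, lymphotoxin alpha, the partner of Ltb, was above the floor only with LPS, at 90.2, against 9.64 with LPS+8-Br-cAMP and 3.80 unstimulated, a bound of at least 2.77-fold on either side. Tnfsf8, or CD30 ligand, read 93.6, 78.2 and 4.35, higher with LPS than unstimulated by at least 1.26, but by 0.93 with spike scaling and 0.98 as deposited. In LPS against unstimulated 3 of 5 were higher and 0 lower (median 1.26).

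Receptors for the 6 ligands other than the Tnf receptors made a list of 10. With LPS+8-Br-cAMP against LPS 1 of 8 measured was higher and 0 lower (median 0.12). That was Tnfrsf22, a decoy receptor for TRAIL in mice, at 103 with LPS+8-Br-cAMP, 46.8 with LPS and 91.3 unstimulated, a difference of 1.13, but 0.21 by its second probe set and 0.32 as deposited. With LPS against unstimulated 1 of 7 was lower and 0 higher (median -0.27). That was Tnfrsf13c, the BAFF receptor of B cells, at 26.1 with LPS, under the floor, against 71.1 unstimulated, a call that a pseudocount ended (-0.82). Other receptors of the superfamily, 16 in the list, had 1 of 10 measured lower with LPS+8-Br-cAMP than with LPS and 0 higher (median -0.19). Fas, the receptor of Fas ligand, was that gene, with a log2 difference of -1.74, at 133 with LPS+8-Br-cAMP, against 442 with LPS and 253 unstimulated. Cd40, which receives T cell help, was higher with LPS than unstimulated by 5.27 (3.89 by its second probe set) and differed by -0.91 with 8-Br-cAMP (-1.44 by its second probe set). Tnfrsf21, or death receptor 6, was lower with LPS than unstimulated, with a log2 difference of -1.67 (-0.59 by its second probe set), and 1 of 10 was higher and 1 lower in that comparison (median -0.10).

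Genes linked to the release of Tnf from the membrane were 7, all measured. The list, which includes Timp3, is not limited to proteins that carry out the release, so its median mixes roles. Adam17, the protease that sheds Tnf, read 537 with LPS+8-Br-cAMP, 1474 with LPS and 801 unstimulated. The log2 difference between LPS+8-Br-cAMP and LPS was -1.46, and -1.06 in its second probe set, and Adam17 was the 1 lower gene of the list. The 1 higher gene was Sppl2b, an intramembrane protease, by 1.32, at 113 with LPS+8-Br-cAMP against 45.2 with LPS (list median -0.16). That call ended with the floor at the 75th percentile (0.05), with a pseudocount (0.91) and with signals as deposited (0.51). In LPS against unstimulated 2 of 7 were higher and 0 lower (median 0.84). These were Rhbdf2, the iRhom that Adam17 needs in myeloid cells, at 421 with LPS against 113 unstimulated, and Sppl2a, by 1.15 (0.81 with spike scaling and 0.86 as deposited).

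Receptor signalling complexes had 24 of 28 genes measured. With LPS+8-Br-cAMP against LPS 1 was lower and 0 higher (median -0.07). Cflar, which blocks caspase-8 activation, was that gene, at 771 with LPS+8-Br-cAMP against 1821 with LPS, a difference of -1.24, but -0.22 by its second probe set. With LPS against unstimulated 7 were higher and 1 lower (median 0.60). The ubiquitin-editing feedback inhibitor Tnfaip3 was higher by 3.74, Cflar by 2.72 (5.29 by its second probe set), the Tnfaip3 partner Tnip1 by 2.58 and the linear ubiquitin ligase Rnf31 by 2.25. With 8-Br-cAMP Tnfaip3 read 7194 against 4219 with LPS, a difference of 0.77, and Tnip1 differed by 0.80.

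Regulators of Tnf mRNA decay and translation were 12, all measured. With LPS+8-Br-cAMP against LPS 1 was lower and 0 higher (median -0.32). Mapkapk2, the kinase that restrains Zfp36 and so favours Tnf translation, read 957 with LPS+8-Br-cAMP, 1998 with LPS and 365 unstimulated, a difference of -1.06 against LPS, just past 2-fold, and -0.93 with spike scaling. Zfp36, which destabilises Tnf mRNA, read 1558, 1920.2 and 594, and differed by -0.30. With LPS against unstimulated 3 were higher and 2 lower (median -0.02). The nuclease Zc3h12a was higher by 3.41 (2.12 on its other probe set), Mapkapk2 by 2.45 and Zfp36 by 1.69, while the Zfp36 relative Zfp36l2 was lower, with a log2 difference of -2.76 (-0.92 with the mean over probe sets).

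**Figure D3:**
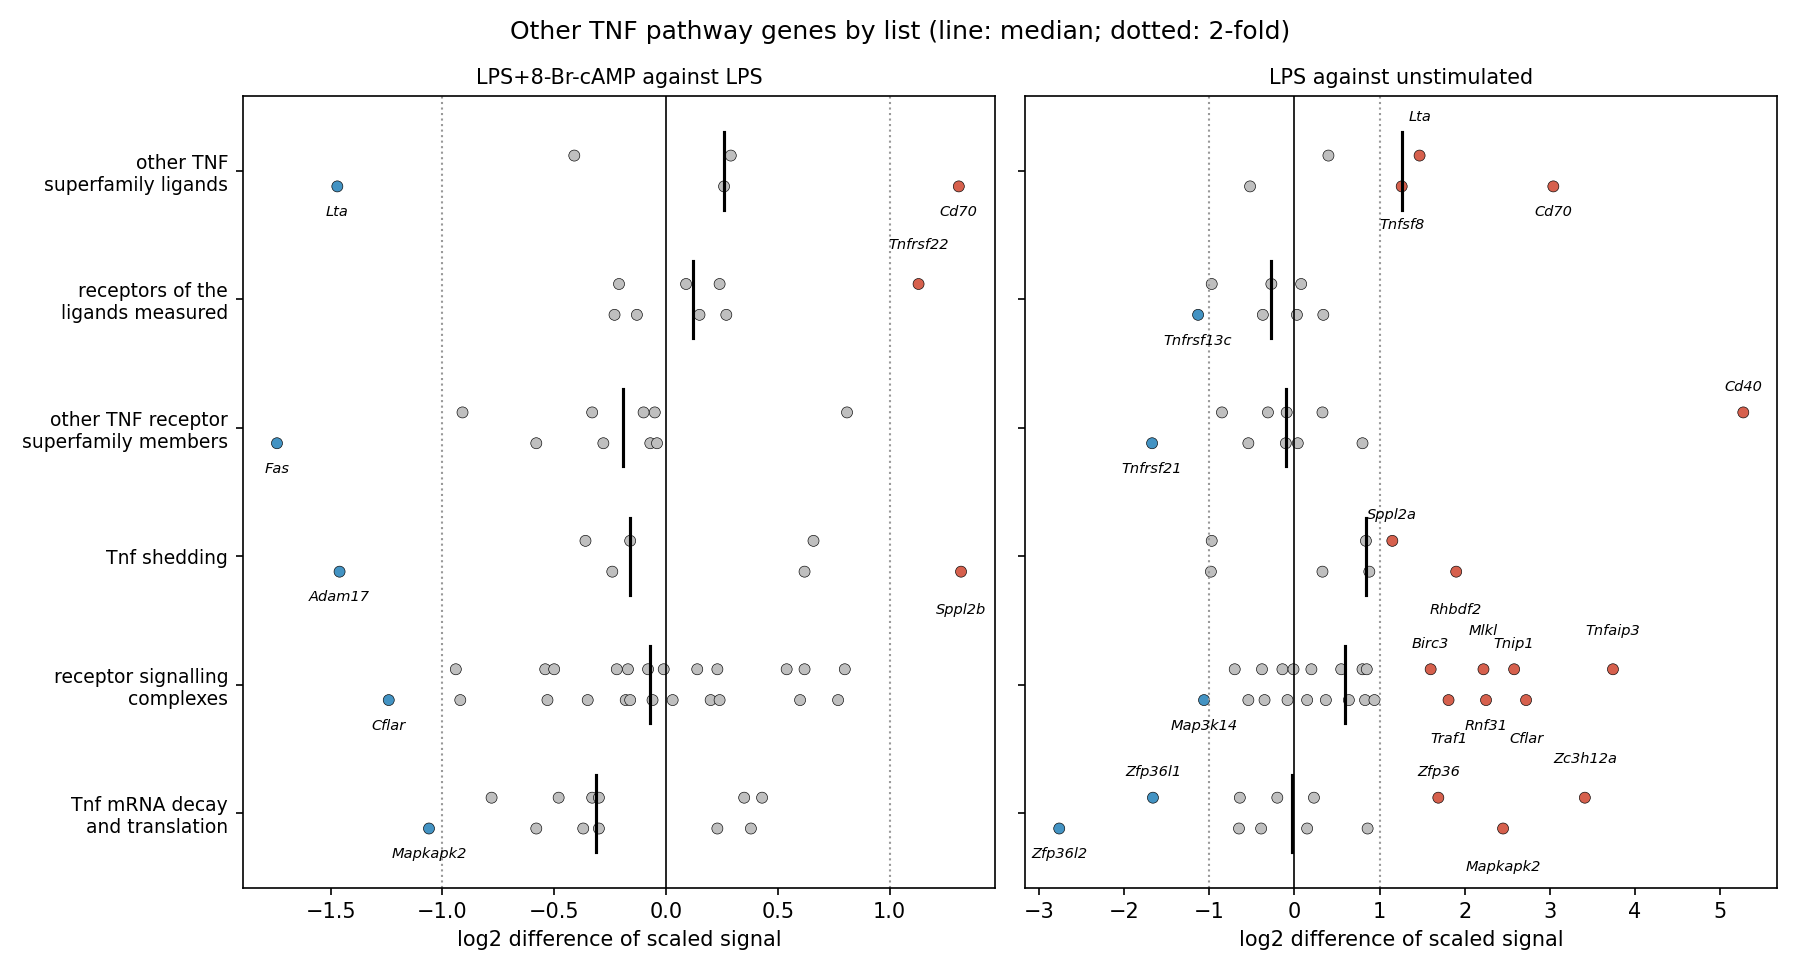
Log2 differences of single genes in the 6 lists of other TNF pathway genes, for LPS+8-Br-cAMP against LPS on the left and LPS against unstimulated on the right. Red points are at least 2-fold higher, blue points at least 2-fold lower, and black lines are list medians, counting a difference against a floored array at its lower bound, which on the left run from -0.32 to 0.26 and on the right from -0.27 to 1.26.

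The differences were recomputed under 10 other settings of scaling, floor and probe set choice. Tnf differed by -5.01 to -4.05 between LPS+8-Br-cAMP and LPS over these, past 2-fold in 10 of 10. Ltb was past 2-fold in 9 of 10, Tnfsf4 in 9 of 10 and Tnfsf10 in 1 of 10, the signals as deposited (-1.54). Tnf, Ltb, Tnfsf4 and Tnfsf9 each have a single probe set, so the settings of probe set choice could not move their values. Nor could a floor at the 25th or 75th percentile move the Tnf difference between the LPS arrays, both of which lay above it. These counts of settings therefore include some that were bound to repeat the value. The signals as deposited gave -0.74 for Tnfsf9, -0.48 for Tnfrsf1a and Tnfsf13b, and -0.91 for Tnfrsf1b, against a median of all genes of -0.65 in that setting. In LPS+8-Br-cAMP against unstimulated, Tnf and Tnfsf9 were past 2-fold in 10 of 10, Tnfsf4 in 9 of 10 and Tnfrsf1b in 7 of 10. Tnfrsf1b fell to 0.90 with quantile normalization, 0.97 with cyclic loess and 0.32 as deposited. Tnfsf10 was past 2-fold in 5 of the 8 settings that gave a value, and Ltb in 7 of 9.

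**Figure D4:**
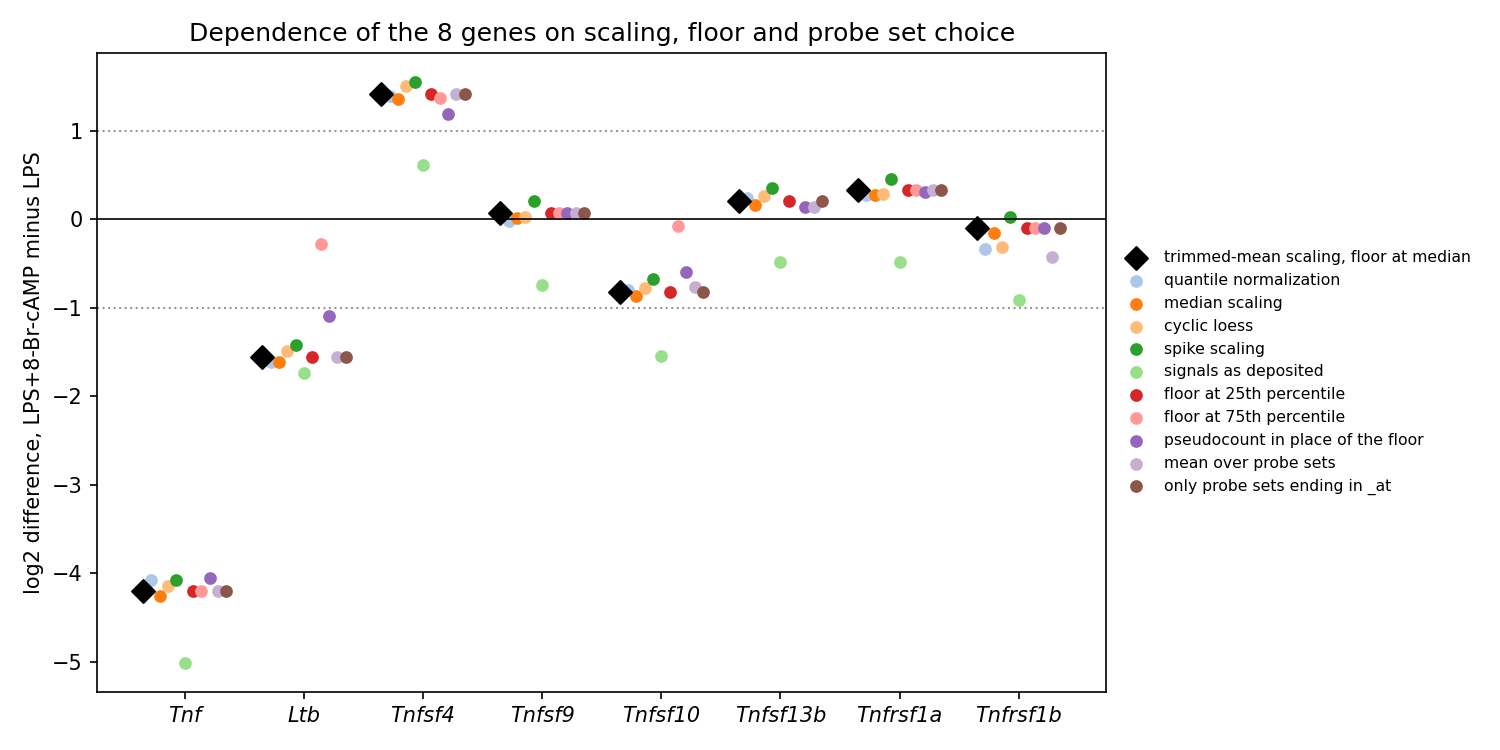
Log2 difference between LPS+8-Br-cAMP and LPS for each of the 8 genes under the scaling used here (black diamonds) and 10 other settings (coloured circles), with dotted lines at 2-fold. Tnf stays between -5.01 and -4.05, and in every gene the signals as deposited lie below the scaled value.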

How the data were processed

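Per the labels' protocols, biotinylated cRNA made from total RNA was hybridised to 3 arrays. The authors deposited a linear signal intensity for each probe set. The submitters' processing notes name MAS5, without a version or settings. Of 45101 probe sets 64 were controls and were left out.

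Each array was multiplied to a common mean trimmed by 2% at each end (factors 1.63 for LPS+8-Br-cAMP, 0.929 for LPS and 0.763 for unstimulated), floored at 32.5 and taken to log2. Probe sets were named from GEO's platform annotation when it gave 1 gene (34945 probe sets), and 99.4% of these had an identifier in the RefSeq gene table (GRCm38.p6). The 8 genes, the 6 gene lists and the 8 marker lists were chosen with earlier results of these data known. Named from each list were up to 4 genes with the largest differences past 2-fold in LPS+8-Br-cAMP against LPS and in LPS against unstimulated. Among similar patterns, 5 genes were named for Tnf and 3 for others past 2-fold. With 1 array per condition no test was made, and precision is limited by the number of arrays. The steps were tested on simulated data. Alternatives were other scalings, floors, probe set choices and thresholds, with quantile normalization and cyclic loess from limma 3.58.1 in R 4.3.3.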

Additional observations from a re-analysis of the deposited data

How the results depend on the processing

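No paired analysis was possible because each condition had 1 array, and no replicate could be left out. A value counted as moved when it shifted by more than the error of 1 probe set, and a count when it changed by over 1.5 times, and no difference past 2-fold changed its direction in the settings run.

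For LPS+8-Br-cAMP against LPS, the signals as deposited gave a median of -0.83 for the 8 genes with 0 higher, and list medians of -0.34 (other ligands), -0.61 (receptors of the ligands), -0.79 (other receptors), -0.97 (shedding), -0.88 (signalling complexes) and -1.13 (mRNA regulators). That setting leaves the array dimness in, and over all genes it gave 93 higher and 2882 lower, against 816 and 730. Other counts over all genes were 454 lower with spike scaling, 2326 higher and 1873 lower with the floor at the 25th percentile, 302 and 304 at the 75th, 472 and 432 with the mean over probe sets, 2271 and 1988 at 1.5-fold, and 182 and 154 at 3-fold. Of the 8 genes, 1 was lower with the floor at the 75th percentile, and 0 were higher and 1 lower at 3-fold. The other-ligand median was 1.31 with the floor at the 75th percentile, and the shedding median 0.62 with the mean over probe sets.

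For LPS against unstimulated, counts over all genes were 526 higher and 2824 lower with spike scaling, 2618 lower as deposited, 1839 and 2640.0 with the floor at the 25th percentile, 596 lower at the 75th, 1026 lower with a pseudocount, 994 lower with the mean over probe sets, 1710 and 3516 at 1.5-fold, and 406 and 425 at 3-fold, against 815 and 1597. The other-ligand median was 0.43 with the floor at the 25th percentile.

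For LPS+8-Br-cAMP against unstimulated, the signals as deposited gave a median of 0.32 for the 8 genes, with 2 higher and 2 lower, and list medians of -0.92 (receptors of the ligands), -0.18 (shedding), -0.94 (signalling complexes) and -1.25 (mRNA regulators), with 286 higher and 6125 lower over all genes, against 1198 and 2018. Of the 8 genes, 0 were lower with cyclic loess, the floor at the 75th percentile or a pseudocount, and 3 were higher and 0 lower at 3-fold. The other-ligand median was 1.66 and 2.60 with the floor at the 25th and 75th percentiles, and the shedding median 0.18 at the 75th. Counts over all genes were 2691 and 3099 with the floor at the 25th percentile, 721 and 839 at the 75th, 1286 lower with the mean over probe sets, 2361 and 3774 at 1.5-fold, and 506 and 688 at 3-fold. Where no construction is named, the cause was not tested.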
